A study of Homo sapiens with 18 samples.

Results

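The genes described here are 9 genes used as readouts of 2 signalling routes, YAP-TEAD and TGF-beta: CCN1, CCN2, ANKRD1, AMOTL2, LATS2, AXL, TGFB1, TGFB2 and SMAD7. The rule takes them by gene symbol and sets no threshold on their values, and they are 9 of the 61487 gene identifiers in the count table. All 9 passed the low-count filter that left 18544 genes for testing. In the older GENCODE release 29, CCN1 and CCN2 are listed as CYR61 and CTGF. RNA was sequenced from MSC-hTERT, a human mesenchymal stem cell line immortalized with telomerase, grown in medium with serum and FGF-2. The study compared 6 groups of 3 libraries: a group labelled pMSCV, which is the name of a retroviral vector and serves below as the control; a group labelled SRF; and 4 groups labelled as SRF fusions, namely SRF-RELA, SRF-PDGFRB, SRF-ICA1L and SRF-FOXO1. SRF is the serum response factor, a transcription factor. All groups share the 1 parental line, and the labels do not say whether the libraries of a group came from separate cultures, so p-values measure only the spread between these libraries.

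YAP and its relative TAZ are coactivators that enter the nucleus when the kinase cascade of the Hippo pathway is off, and there they act through the DNA-binding TEAD proteins. CCN1, CCN2, ANKRD1, AMOTL2, LATS2 and AXL are commonly used as their target genes, and LATS2 and AMOTL2 feed back to restrain YAP. TGF-beta ligands bind paired receptors that phosphorylate SMAD proteins, and SMAD7 is an inhibitory SMAD that the pathway itself induces. CCN2 responds to both routes, and CCN1, CCN2 and ANKRD1 are also known to respond to SRF with its MRTF cofactors, which read the actin cytoskeleton as YAP does.

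Promoter sequence is shown for 3 members to let the 2 members that carry most of the differences below, ANKRD1 and CCN2, be set beside TGFB1, whose ratio of highest to lowest library was the smallest. These 3 were picked by their levels in these data, and TGFB1 is not among the YAP-TEAD targets named above. The contrast of their motifs is therefore a description and no test. Each is the 250 bases before the RefSeq gene start on GRCh38.p14, read 5′ to 3′ on the gene's strand, and capitals mark the TEAD motif GGAATG and the SMAD motif CAGAC on either strand. The windows lie at chr6:131951373-131951622 (minus strand) for CCN2, chr10:90921088-90921337 (minus strand) for ANKRD1 and chr19:41353923-41354172 (minus strand) for TGFB1.
CCN2: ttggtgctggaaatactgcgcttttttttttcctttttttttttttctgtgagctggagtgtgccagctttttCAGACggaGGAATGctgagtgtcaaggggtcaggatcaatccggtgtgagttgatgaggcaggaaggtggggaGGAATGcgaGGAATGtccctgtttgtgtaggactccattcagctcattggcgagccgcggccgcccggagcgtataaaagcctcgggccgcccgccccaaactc
ANKRD1: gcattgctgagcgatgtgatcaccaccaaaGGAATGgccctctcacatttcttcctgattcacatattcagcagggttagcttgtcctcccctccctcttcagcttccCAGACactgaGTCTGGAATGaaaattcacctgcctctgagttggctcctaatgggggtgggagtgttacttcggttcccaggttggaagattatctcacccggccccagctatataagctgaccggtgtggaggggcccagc
TGFB1: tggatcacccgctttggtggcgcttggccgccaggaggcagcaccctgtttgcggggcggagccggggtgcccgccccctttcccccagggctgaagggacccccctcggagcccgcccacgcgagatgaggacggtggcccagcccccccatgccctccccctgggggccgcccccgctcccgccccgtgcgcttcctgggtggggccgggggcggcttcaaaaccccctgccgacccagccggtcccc

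The CCN2 window held 3 TEAD motifs and 1 SMAD motif, the ANKRD1 window 2 of each, and the TGFB1 window neither. In ANKRD1, 1 TEAD motif shares a base with a SMAD motif on the opposite strand. RefSeq promoters were matched for 8 of the 9 members, without CCN1. A TEAD motif was in 3 of these 8 windows (CCN2, ANKRD1 and TGFB2) and in 11.9% of 35116 windows of the same length across the genome. A SMAD motif was in 6 of 8 (not in LATS2 or TGFB1) and in 38.0% of all windows. The palindromic SMAD motif GTCTAGAC and the CArG box, the sequence SRF binds (CC, 6 letters A or T, GG), were in 0 of the 8, against 0.182% and 1.16% of all windows. With shares this low, 0 of 8 does not set the members apart from other genes. Only exact matches were counted, so looser or more distant SRF sites would be missed. The match positions describe letters in these short windows and not bound sites.

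**Figure D1:**
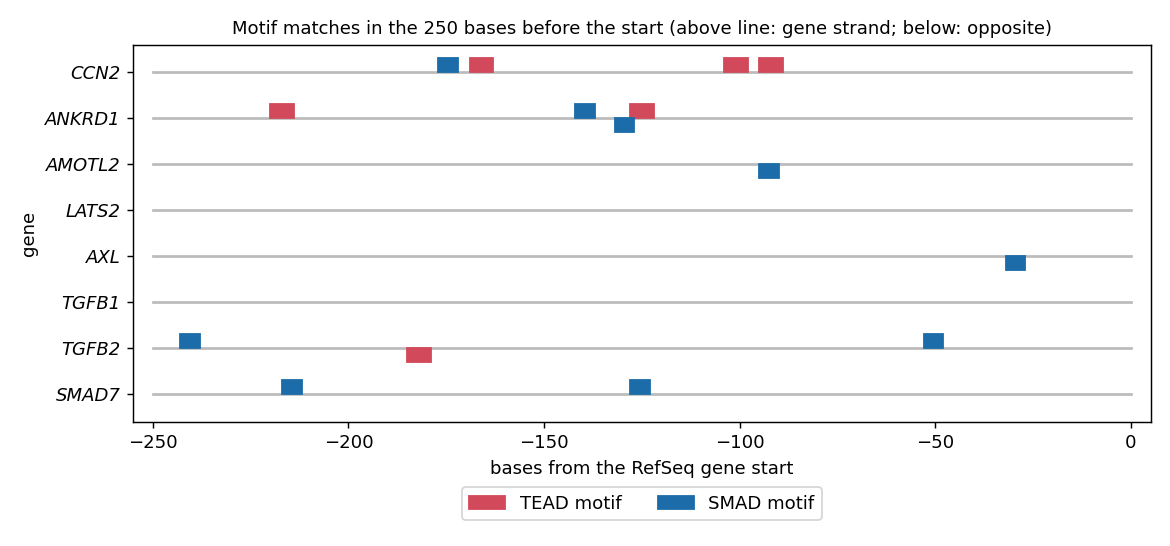
Position of TEAD and SMAD motif matches in the 250 bases before the RefSeq gene start of 8 members; the x axis is in bases from the start, boxes above a line are on the gene's strand and boxes below it on the opposite strand. CCN2 has 3 TEAD matches, ANKRD1 has 2 and TGFB2 has 1.

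Libraries held 19362319 to 29806771 counts. SRF was at 57.3 to 64.4 CPM (the gene's count scaled to a common library total) in pMSCV, at 678 to 1122 CPM in SRF and at 151 to 337 CPM in the 4 fusion groups, and ICA1L and RELA were highest in the groups named for them. PDGFRB was at 526 to 929.7 CPM in SRF-PDGFRB, which overlapped the 357 to 621 CPM of SRF, and it was not called against pMSCV (log2 fold change 0.73, edgeR adjusted p 1.00, SE 0.23). FOXO1 was at 7.36 to 14.4 CPM among the libraries labelled SRF-FOXO1 and at 9.45 to 17.5 CPM in pMSCV, so FOXO1 does not check that label and the group is called the libraries labelled SRF-FOXO1 throughout. Mesenchymal markers were found in each library, from THY1 at 36.8 CPM or more to COL1A1 at 4821 CPM or more. The haematopoietic markers PTPRC, CD14 and CD34 reached at most 0.277, 0.736 and 3.47 CPM. Of the epithelial markers KRT8 was at 24.3 to 52.3 CPM, and EPCAM, CDH1 and KRT19 reached at most 0.537, 1.135 and 0.268 CPM. Of the endothelial markers PECAM1 was at 4.31 to 27.96 CPM, and CDH5, VWF and KDR reached at most 1.96, 1.46 and 3.26 CPM.

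Among themselves the 9 genes spanned a wide range of levels. Per kilobase of GENCODE release 29 exons, the median over the 18 libraries was 276 CPM per kb for CCN1 and 206 for CCN2, the secreted matricellular proteins. TGFB1 followed at 74.8 and AXL at 43.9 CPM per kb. AMOTL2 (10.5), ANKRD1 (8.89), SMAD7 (8.35), LATS2 (4.93) and TGFB2 (2.65) were lower on this scale. As a ratio of the highest to the lowest library, ANKRD1 varied most, from 0.322 to 100.3 CPM per kb, and TGFB1 least, from 61.1 to 86.2 CPM per kb.

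**Figure D2:**
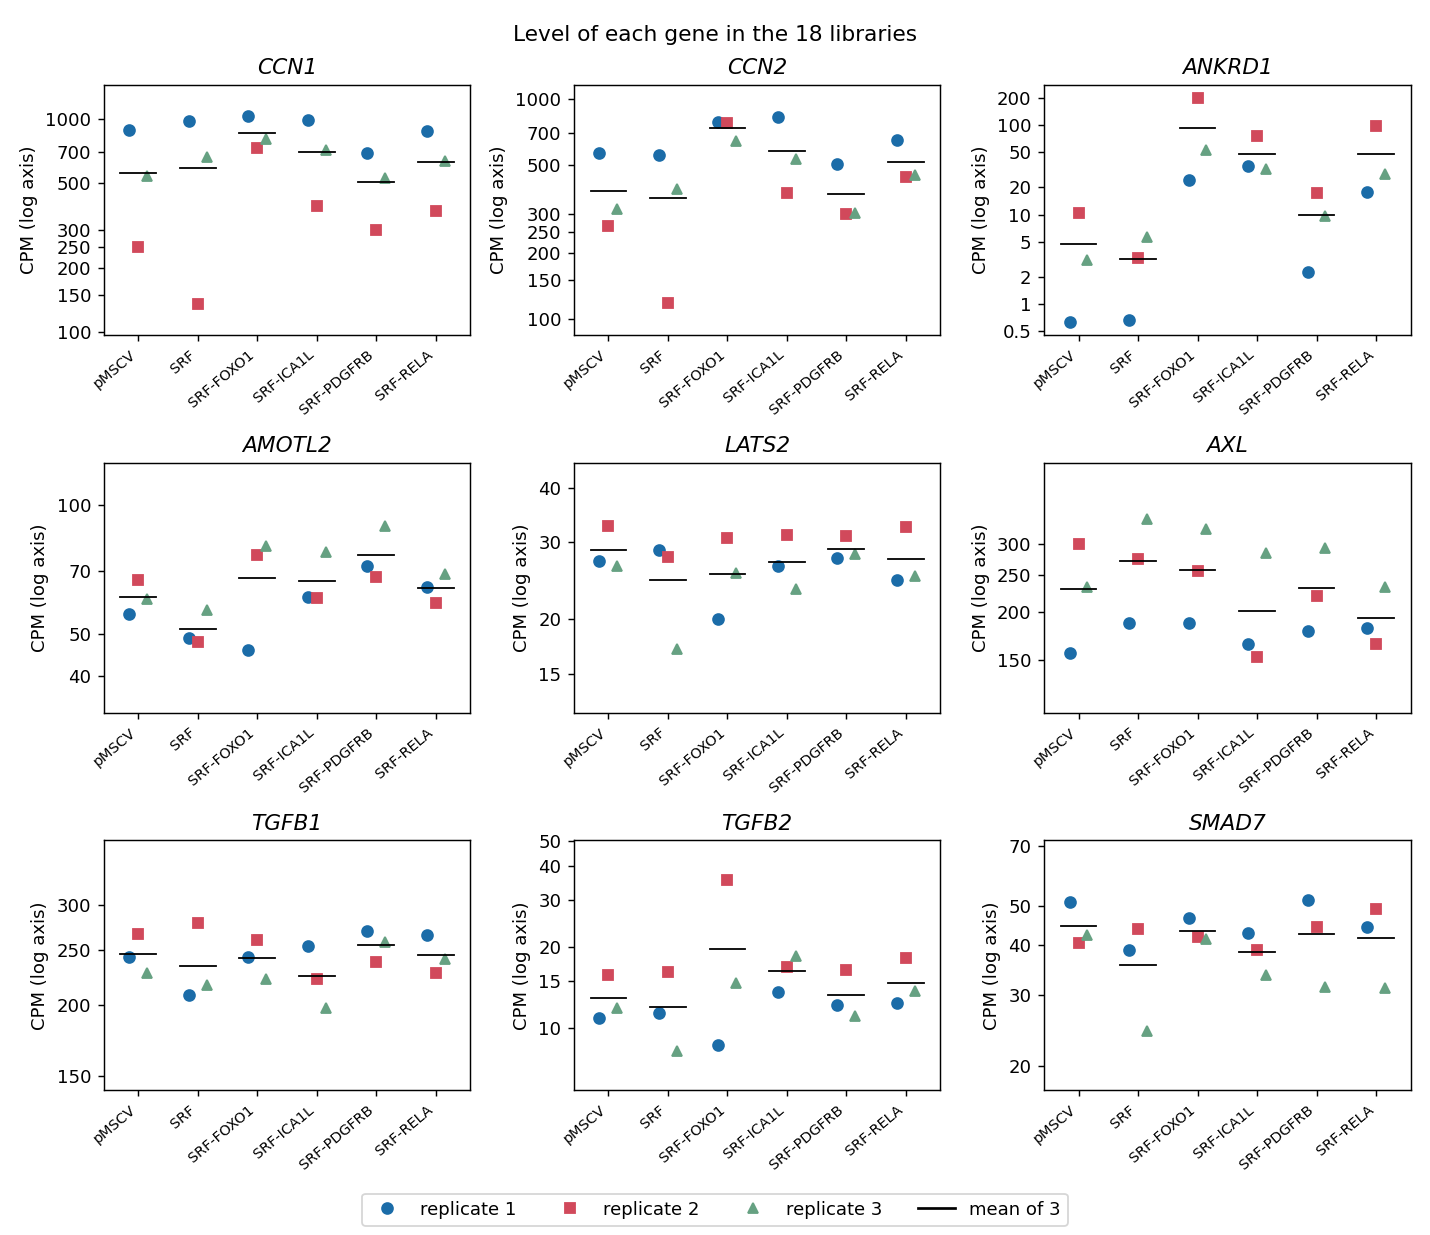
CPM of each of the 9 genes (log y axis) in the 6 groups; each point is 1 library, its shape and colour give the replicate number, and the line is the mean of 3. ANKRD1 separates SRF-ICA1L, SRF-RELA and the libraries labelled SRF-FOXO1 from pMSCV and SRF, while TGFB1 stays between 198 and 279 CPM in every library.

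ANKRD1 (ENSG00000148677, chromosome 10, 90912096 to 90921087), a muscle ankyrin repeat protein found in the sarcomere and the nucleus, showed the widest differences between groups. In pMSCV replicates 1, 2 and 3 it was at 0.637, 10.3 and 3.12 CPM, and in SRF at 0.668, 3.25 and 5.66 CPM. It was at 24.3, 198 and 51.8 CPM among the libraries labelled SRF-FOXO1. In SRF-ICA1L it was at 34.7, 75.7 and 32.0 CPM. SRF-RELA had 17.6, 96.9 and 28.6 CPM. Each library of these 3 fusion groups was above each pMSCV and SRF library. In SRF-PDGFRB it was at 2.30, 17.6 and 9.503 CPM, which overlapped both controls.

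The log2 fold change of ANKRD1 against pMSCV was 4.45 (SE 1.15) in the libraries labelled SRF-FOXO1, 3.50 (SE 1.11) in SRF-ICA1L, 3.46 (SE 1.11) in SRF-RELA, 1.10 (SE 1.07) in SRF-PDGFRB and -0.49 (SE 1.11) in SRF. None of these passed an edgeR adjusted p of 0.05 over the 18544 genes when only the groups were modelled (0.0915, 0.237, 0.648, 1.00 and 0.975). Fully separated groups with the fusion higher were found for 6.41%, 5.69% and 5.20% of all tested genes in the first 3 of these comparisons, and for 5.55%, 5.58% and 6.71% when the same fusions were set against SRF. Libraries with the same replicate number were above pMSCV in 3 of 3 pairs in each of these fusions, and also in SRF-PDGFRB. The log2 differences within numbers 1, 2 and 3 were 5.25, 4.27 and 4.06 in the libraries labelled SRF-FOXO1, 5.77, 2.88 and 3.36 in SRF-ICA1L, and 4.79, 3.24 and 3.20 in SRF-RELA. In SRF-PDGFRB they were 1.85, 0.77 and 1.61. The share of all genes with 3 of 3 pairs higher is not given here, so these pair counts have no background.

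Because libraries with the same number deviated together, the fit was repeated with the replicate number as a block, and ANKRD1 then rose in these 3 fusions against pMSCV. The blocked log2 fold changes were 4.40 (edgeR adjusted p 9.15e-04, SE 0.58) in the libraries labelled SRF-FOXO1, 3.97 (edgeR adjusted p 0.00208, SE 0.58) in SRF-ICA1L and 3.56 (edgeR adjusted p 0.00831, SE 0.57) in SRF-RELA. Genes called higher with the block made up 4.65%, 3.26% and 0.928% of those tested in these comparisons. The SRF-RELA call was lost without pMSCV replicate 1 (edgeR adjusted p 0.0502) and without pMSCV replicate 3 (0.0532), and the other calls held without each of their libraries in turn. Without the block but also without SRF-FOXO1 replicate 1, ANKRD1 passed in the libraries labelled SRF-FOXO1 against pMSCV (log2 fold change 4.90, edgeR adjusted p 0.0486). The summed CPM of the smooth muscle markers ACTA2, MYH11 and DES, most of it ACTA2, was also above pMSCV in each library of these 3 fusions. It was 15.7 to 22.8 in pMSCV, 18.04 to 32.5 in SRF-PDGFRB and 36.8 to 62.3 in SRF, where ANKRD1 overlapped pMSCV. It was 71.0 to 364 in the libraries labelled SRF-FOXO1, 67.5 to 137 in SRF-ICA1L and 51.2 to 163 in SRF-RELA, and its part in the result was not tested. MYH11 alone was at 0.752 to 1.53 CPM in SRF-ICA1L, which overlapped its 0.516 to 1.21 CPM in pMSCV. It was at 1.82 to 22.5 CPM in SRF-RELA and at 1.38 to 14.6 CPM in the libraries labelled SRF-FOXO1. Each library of these 2 groups was above each pMSCV library, as for 5.20% and 6.41% of all genes. In bulk RNA, more cells of a kind and more RNA per cell cannot be told apart.

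The comparison with SRF sets the fusions beside cells with raised SRF, although SRF itself was higher in that group (945 CPM on average) than in the fusions (means of 181.7 to 326 CPM). Against SRF, the log2 fold change of ANKRD1 was 3.99 (edgeR adjusted p 0.151, SE 1.14) in SRF-ICA1L and 3.95 (edgeR adjusted p 0.262, SE 1.14) in SRF-RELA. With the block it rose in both, by 4.11 (edgeR adjusted p 0.00188, SE 0.59) and 3.69 (edgeR adjusted p 0.00601, SE 0.58), where 3.16% and 1.26% of all genes were called higher. In the libraries labelled SRF-FOXO1 it was 4.94 (edgeR adjusted p 0.0555, SE 1.19) against SRF, and without SRF-FOXO1 replicate 1 it passed (5.39, edgeR adjusted p 0.0284). Comparisons with pMSCV share the pMSCV libraries, and those with SRF share the SRF libraries.

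Each SRF-PDGFRB library was below each library of the other 3 fusions in ANKRD1, a pattern shown by 6.13% of all genes against the libraries labelled SRF-FOXO1, 5.60% against SRF-ICA1L and 4.13% against SRF-RELA. Against SRF-RELA this rests on a near tie, with SRF-PDGFRB replicate 2 at 17.57 CPM and SRF-RELA replicate 1 at 17.59 CPM. The level was lower in SRF-PDGFRB than in the libraries labelled SRF-FOXO1 by a log2 difference of -3.36 (edgeR adjusted p 0.187, SE 1.08) and than in SRF-ICA1L by -2.41 (edgeR adjusted p 0.386, SE 1.05). With the block both were called, at -3.19 (edgeR adjusted p 0.00654, SE 0.54) and -2.77 (edgeR adjusted p 0.0117, SE 0.54), where 2.87% and 3.01% of all genes were called lower. The first of these was lost without SRF-PDGFRB replicate 2 (edgeR adjusted p 0.0589), and the second without any 1 of the SRF-PDGFRB replicates 1, 2 and 3 (edgeR adjusted p 0.0644, 0.0754 and 0.0503). SRF-RELA was above SRF-PDGFRB by 2.36 (edgeR adjusted p 1.00, SE 1.05), and this did not pass with the block (edgeR adjusted p 0.0701). No difference among the 3 fusions with high ANKRD1 passed in either fit.

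CCN2 (ENSG00000118523, chromosome 6, 131948176 to 131951372), also called connective tissue growth factor, was the other target with a called difference. It was at 570, 264 and 317 CPM in pMSCV and at 557, 119 and 389 CPM in SRF. In the libraries labelled SRF-FOXO1 it was at 786, 780 and 643 CPM, above every pMSCV and SRF library. Of all tested genes, 6.41% were separated in this way from pMSCV and 5.55% from SRF. SRF-ICA1L had 828, 375 and 533 CPM, SRF-PDGFRB 509, 299.6 and 304 CPM, and SRF-RELA 654, 440.2 and 452 CPM, and each of these groups overlapped pMSCV.

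The log2 fold change of CCN2 in the libraries labelled SRF-FOXO1 against pMSCV was 1.02 (edgeR adjusted p 0.308, SE 0.45). With the replicate block it rose by 1.15 (edgeR adjusted p 0.0436, SE 0.32). That call was lost in 5 of the 6 blocked fits that left out 1 of these libraries, with edgeR adjusted p-values up to 0.185, and it held only without SRF-FOXO1 replicate 1 (0.0303). Within numbers 1, 2 and 3 the log2 differences were 0.46, 1.56 and 1.02. Against pMSCV, CCN2 was at 0.69 (SE 0.45) in SRF-ICA1L, 0.47 (SE 0.45) in SRF-RELA, -0.06 (SE 0.45) in SRF-PDGFRB and -0.08 (SE 0.45) in SRF, none of which passed in either fit. Between fusions, SRF-PDGFRB was below the libraries labelled SRF-FOXO1 by -1.07 (edgeR adjusted p 0.292, SE 0.45), and this also did not pass with the block (edgeR adjusted p 0.0524). The libraries of these groups did not overlap, as for 6.13% of all genes.

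CCN1 (ENSG00000142871, chromosome 1, 85580761 to 85583950), the closest relative of CCN2 among the members, followed it from library to library and passed in no comparison of groups. It was at 888, 251 and 539 CPM in pMSCV and at 972, 136 and 659 CPM in SRF. The libraries labelled SRF-FOXO1 had 1028, 731 and 800.2 CPM. SRF-ICA1L had 985, 389 and 716 CPM, SRF-PDGFRB 694, 299.7 and 530.1 CPM, and SRF-RELA 876, 369.8 and 635 CPM. Its largest log2 fold change against pMSCV was 0.67 (95% interval -0.62 to 1.97) in the libraries labelled SRF-FOXO1, an interval wide enough to hold the value of CCN2. All 3 SRF-PDGFRB libraries were below all 3 libraries labelled SRF-FOXO1 in CCN1, as in ANKRD1 and CCN2. This pattern was shown by 6.13% of all genes. Over the 18 libraries CCN1 and CCN2 had a Pearson correlation of 0.91 on the log2 CPM scale, and 0.93 after each group's mean was removed. These libraries share groups and replicate numbers, so the correlation is a description.

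**Figure D3:**
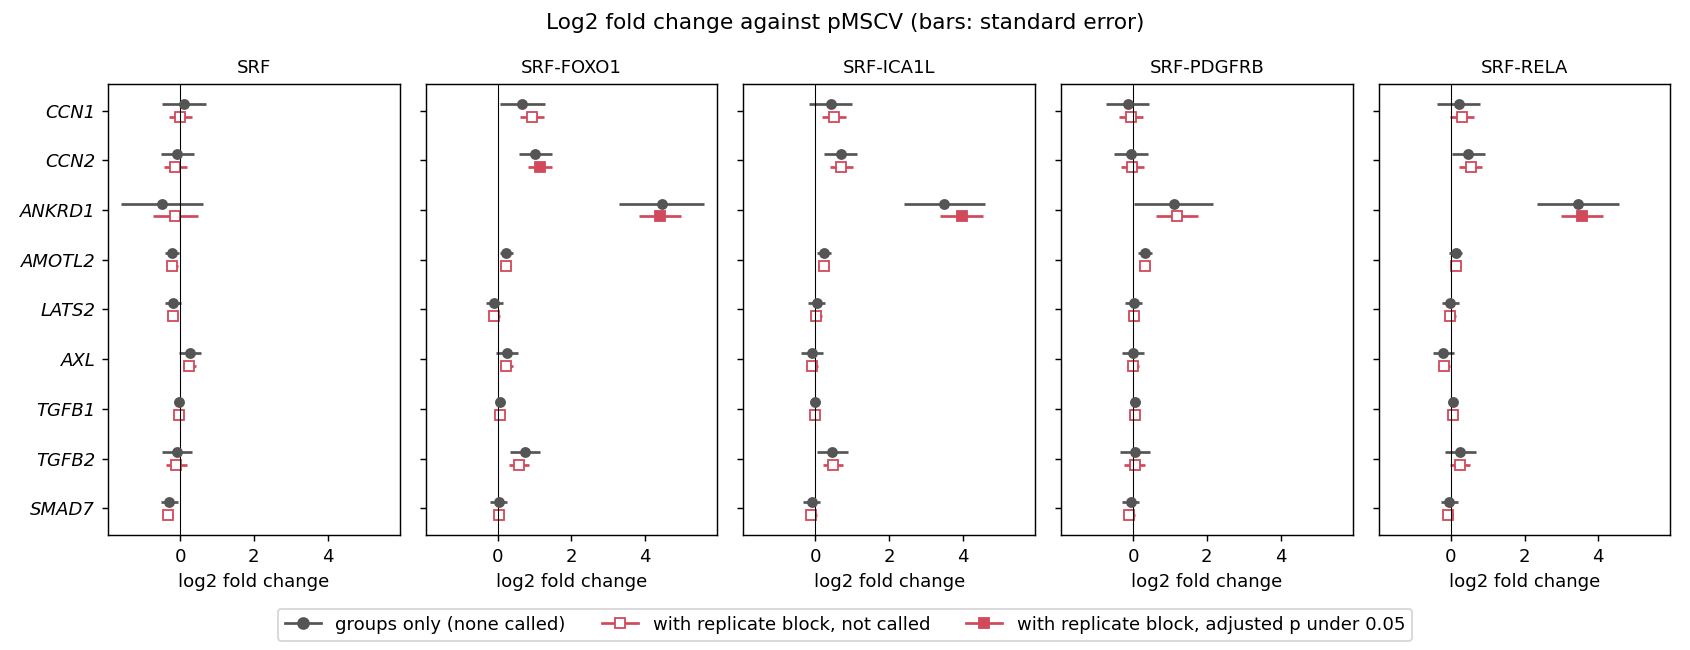
Log2 fold change (x axis) of each gene against pMSCV in the 5 construct groups, with 1 standard error; circles are from the fit on groups, where none was called, and squares from the fit with the replicate block, filled where called. The ANKRD1 square is filled in SRF-ICA1L, SRF-RELA and the libraries labelled SRF-FOXO1, and the CCN2 square in the last of these.

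AMOTL2 (ENSG00000114019, chromosome 3, 134355345 to 134375417), an angiomotin family protein that binds YAP, differed most from SRF rather than from pMSCV. It was at 48.96, 48.0 and 57.0 CPM in SRF. SRF-PDGFRB had 72.0, 68.0 and 89.5 CPM, all above SRF, and so were SRF-ICA1L (61.2, 60.7 and 77.5 CPM) and SRF-RELA (64.5, 59.3 and 68.9 CPM). The libraries labelled SRF-FOXO1 were spread from 46.0 to 80.2 CPM and overlapped SRF. All genes separated from SRF in this way made up 10.9% in SRF-PDGFRB, 5.58% in SRF-ICA1L and 6.71% in SRF-RELA. The log2 fold change against SRF was 0.54 (edgeR adjusted p 0.263, SE 0.18) in SRF-PDGFRB, 0.45 (edgeR adjusted p 0.318, SE 0.18) in SRF-ICA1L and 0.35 (edgeR adjusted p 0.551, SE 0.18) in SRF-RELA. None passed with the block, where the lowest edgeR adjusted p was 0.0721. In the libraries labelled SRF-FOXO1 it was 0.45 against SRF (edgeR adjusted p 0.244, SE 0.18), and without SRF-FOXO1 replicate 1 it was 0.68 and passed (edgeR adjusted p 0.00872). Against pMSCV (55.9, 67.0 and 60.4 CPM) its log2 fold changes lay between -0.22 in SRF and 0.32 in SRF-PDGFRB, whose 3 libraries were also all above pMSCV, as for 5.12% of all genes.

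LATS2 (ENSG00000150457, chromosome 13, 20973036 to 21061586), the Hippo kinase that phosphorylates YAP, was at 27.3, 32.7 and 26.5 CPM in pMSCV. It was at 28.9, 27.8 and 17.1 CPM in SRF, whose replicate 3 was the lowest of the 18. The other groups lay between 20.03 and 32.6 CPM. Log2 fold changes against pMSCV ran from -0.20 (95% interval -0.67 to 0.27) in SRF to 0.03 (95% interval -0.44 to 0.50) in SRF-ICA1L.

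AXL (ENSG00000167601, chromosome 19, 41219223 to 41261766), a receptor tyrosine kinase, was at 156, 301 and 233 CPM in pMSCV and between 153 and 349.8 CPM in the other groups. All groups overlapped. Its log2 fold changes against pMSCV lay between -0.20 (95% interval -0.84 to 0.44) in SRF-RELA and 0.27 (95% interval -0.37 to 0.91) in SRF.

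TGFB1 (ENSG00000105329, chromosome 19, 41330323 to 41353922), the ligand that names the pathway, was at 243, 267 and 228 CPM in pMSCV and between 198 and 279 CPM elsewhere. Its log2 fold changes against pMSCV were between -0.04 (95% interval -0.33 to 0.25) and 0.06 (95% interval -0.23 to 0.35), the tightest intervals among the members.

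TGFB2 (ENSG00000092969, chromosome 1, 218345336 to 218444619), a second ligand and itself listed among YAP targets, was at 10.9, 15.8 and 11.9 CPM in pMSCV. In the libraries labelled SRF-FOXO1 it was at 8.62, 35.7 and 14.7 CPM. Replicate 2 was the highest of the 18 libraries, the next being SRF-ICA1L replicate 3 at 18.5 CPM, and replicate 1 of the same group was the second lowest. The log2 fold change was 0.73 (SE 0.41, 95% interval -0.17 to 1.63, edgeR adjusted p 0.418) there and 0.46 (edgeR adjusted p 0.763, SE 0.41) in SRF-ICA1L.

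SMAD7 (ENSG00000101665, chromosome 18, 48919853 to 48950965), the inhibitory SMAD, was at 51.1, 40.4 and 42.2 CPM in pMSCV. It was lowest in SRF replicate 3, at 24.4 CPM. Its log2 fold changes against pMSCV lay between -0.29 (95% interval -0.78 to 0.20) in SRF and 0.03 (95% interval -0.46 to 0.53) in the libraries labelled SRF-FOXO1.

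Counted over all 9 members, 0 of 45 comparisons with pMSCV, 0 of 36 with SRF and 0 of 54 between fusions were called by edgeR without the block. At an unadjusted p under 0.05 there were 4, 7 and 4. The DESeq2 Wald test called 2, 3 and 1, all of them ANKRD1. The shares of all genes under the unadjusted rule and the DESeq2 test are not given here, so these counts have no background. The share of all genes called by edgeR against pMSCV was 0.0270% for SRF, 0.928% for the libraries labelled SRF-FOXO1, 0.469% for SRF-ICA1L, 0.0324% for SRF-PDGFRB and 0.183% for SRF-RELA. Against SRF it was 1.36%, 0.782%, 0.146% and 0.388% in the 4 fusions in the same order. Between fusions it was 0.717% for SRF-PDGFRB against the libraries labelled SRF-FOXO1, 0.820% for SRF-PDGFRB against SRF-ICA1L and 0.162% for SRF-RELA against SRF-PDGFRB. It was 0.0270% for SRF-ICA1L and 0.00539% for SRF-RELA, both against the libraries labelled SRF-FOXO1, and 0.0108% for SRF-RELA against SRF-ICA1L. With the block 4, 4 and 2 member comparisons were called. The 4 against SRF include ANKRD1 and CCN2 in the libraries labelled SRF-FOXO1, a comparison whose number 1 libraries do not pair by the rule given below. In that comparison 4.91% of all genes were called higher. The median log2 fold change of the members against pMSCV was -0.08, 0.25, 0.23, 0.01 and 0.13 in SRF and the 4 fusions in that order, beside medians of all tested genes between -0.01 and 0.01. Members above 0 were 8 of 9 in the libraries labelled SRF-FOXO1, 6 of 9 in each of the other fusions and 2 of 9 in SRF. Of all 18544 genes, 9586 were above 0 in the libraries labelled SRF-FOXO1 and 9575 in SRF. In SRF-ICA1L, SRF-PDGFRB and SRF-RELA these were 9114, 9435 and 8888. Whether the member counts differ from these shares was not tested.

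Other genes of the YAP-TEAD route were then described from lists. Of 19 genes of the Hippo pathway and its TEAD cofactors, among them YAP1, the TAZ gene WWTR1 and TEAD1, 0 were called against pMSCV in any of the 5 constructs (edgeR), with medians from -0.13 in SRF to 0.04 in SRF-PDGFRB. With the block, 1 of 19 (TEAD2) was lower in SRF, and 2 of 19 (SAV1 and VGLL4) in the libraries labelled SRF-FOXO1. Of all 18544 genes, 15 and 442 were called lower with the block in these 2 comparisons. YAP1 itself ranged from 143 to 232 CPM and WWTR1 from 209.9 to 542 CPM over the 18 libraries.

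Of 18 other YAP-TEAD targets, 2 rose in the libraries labelled SRF-FOXO1 and 1 in SRF-ICA1L, and 0 fell. The median log2 fold change of this list reached 0.54 for the libraries labelled SRF-FOXO1, and 0.14 in SRF-ICA1L and SRF-RELA. In the libraries labelled SRF-FOXO1, 11 of 18 were above 0, beside 9586 of all 18544 genes. F3, tissue factor of the clotting cascade, was at 37.0, 51.2 and 92.2 CPM in pMSCV and at 324, 659 and 539.8 CPM among the libraries labelled SRF-FOXO1. F3 rose there by 3.18 on the log2 scale (edgeR adjusted p 0.0115, SE 0.50). SRF-PDGFRB, at 48.6, 54.6 and 105 CPM, was lower than the libraries labelled SRF-FOXO1 in F3 by -2.98 (edgeR adjusted p 0.0147, SE 0.50). EDN1, the vasoconstrictor peptide endothelin, was at 1.45, 3.40 and 1.32 CPM in pMSCV and at 6.34, 14.1 and 10.9 CPM among the libraries labelled SRF-FOXO1, a log2 fold change of 2.46 (edgeR adjusted p 0.0226, SE 0.47). IGFBP3, an insulin-like growth factor binding protein, was at 12.1, 21.2 and 20.5 CPM in pMSCV and at 110, 69.0 and 151 CPM in SRF-ICA1L. It rose there by 2.72 on the log2 scale (edgeR adjusted p 0.0141, SE 0.47). SRF-PDGFRB, at 11.2, 11.1 and 22.8 CPM, was below SRF-ICA1L in IGFBP3 by -2.99 (edgeR adjusted p 0.00849, SE 0.47). Neither gene was high in 1 fusion only. In SRF-RELA, F3 was at 105 to 242 CPM and IGFBP3 at 57.2 to 84.95 CPM. Both were above every pMSCV library, as were 5.20% of all genes, but 0 of the 18 targets were called there without the block. IGFBP3 in the libraries labelled SRF-FOXO1 spanned 20.5 to 85.6 CPM and overlapped pMSCV. Calls against pMSCV were lost in 3 of 6 fits without 1 library for F3, 3 for EDN1 and 4 for IGFBP3, with edgeR adjusted p-values of 0.105, 0.160 and 0.115 without pMSCV replicate 1. With the block, 6 of the 18 were called higher in the libraries labelled SRF-FOXO1, 2 in SRF-ICA1L and 2 in SRF-RELA, beside 4.65%, 3.26% and 0.928% of all genes. Against SRF, F3, EDN1 and TNFRSF12A, the last named after its values were seen, were called higher in the libraries labelled SRF-FOXO1 and IGFBP3 in SRF-ICA1L. These calls were lost without 1 library in 2 of 6 fits for F3, 2 for EDN1, 3 for TNFRSF12A and 2 for IGFBP3, with edgeR adjusted p-values up to 0.0874 (TNFRSF12A without SRF replicate 1). The lower F3 in SRF-PDGFRB was lost in 3 of 6 fits (edgeR adjusted p 0.102 without SRF-PDGFRB replicate 2), and the lower IGFBP3 in 2 of 6 (0.0640 without the same library).

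On the TGF-beta side, 24 ligands, receptors, SMADs and regulators had medians between -0.17 and 0.00 against pMSCV, and 1 was called. BAMBI, a decoy receptor that dampens TGF-beta signalling, was at 2.44, 2.49 and 0.693 CPM in pMSCV and at 5.54, 9.44 and 3.98 CPM among the libraries labelled SRF-FOXO1. It rose by a log2 fold change of 1.85 (edgeR adjusted p 0.0421, SE 0.41), a call lost in 4 of 6 fits without 1 library, with the largest edgeR adjusted p, 0.227, without SRF-FOXO1 replicate 2. BAMBI was also lower in SRF-PDGFRB than in those libraries, by -2.21 (edgeR adjusted p 0.0206, SE 0.42), a call also lost in 4 of 6 fits (edgeR adjusted p 0.118 without SRF-PDGFRB replicate 3). Of 19 tested TGF-beta targets on a list of 20, 0 were called against pMSCV, with medians between -0.09 and 0.17. With the block, 2 of these targets rose and 1 fell in the libraries labelled SRF-FOXO1, and 4 rose and 1 fell in SRF-ICA1L. Of the 24 regulators, 2 rose and 3 fell in the libraries labelled SRF-FOXO1 with the block, and 1 rose in SRF-ICA1L. Over all 18544 genes the block called 862 higher and 442 lower in the libraries labelled SRF-FOXO1, and 604 higher and 260 lower in SRF-ICA1L.

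**Figure D4:**
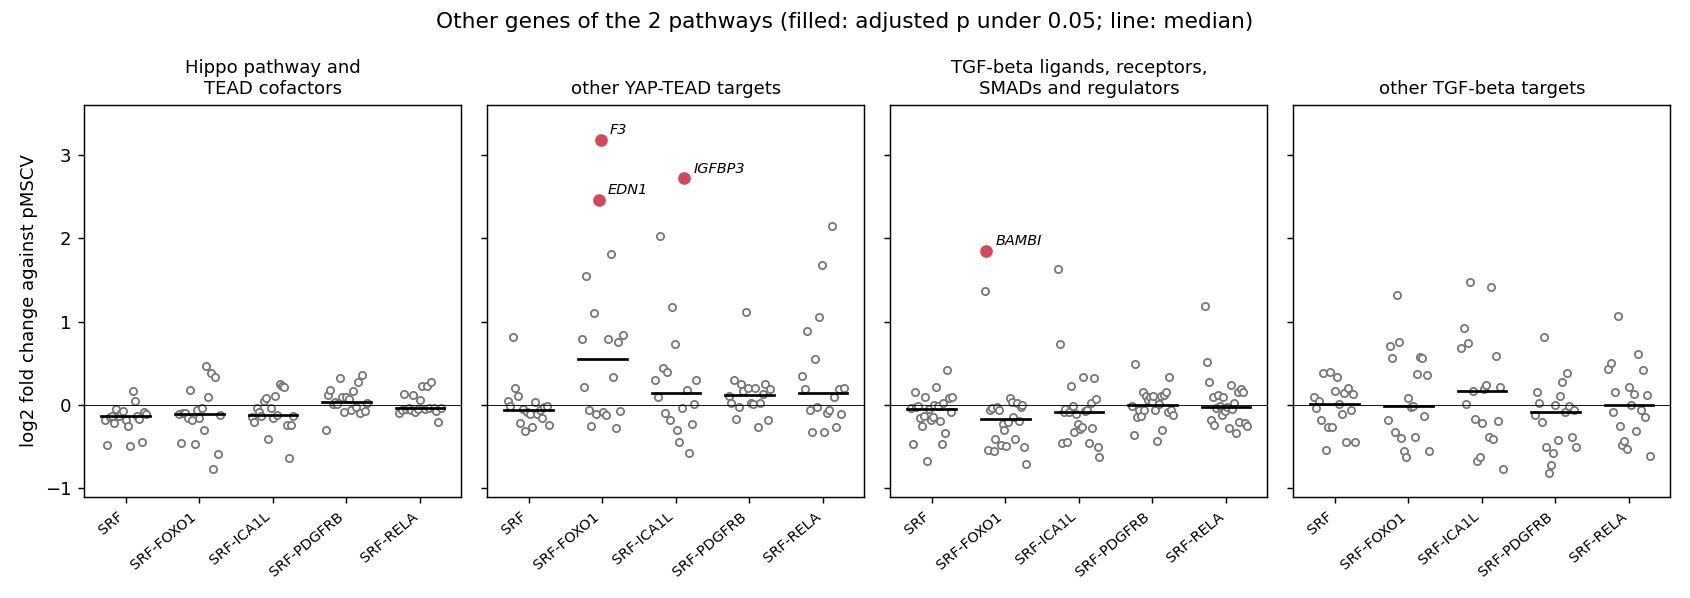
Log2 fold change against pMSCV (y axis) of the tested genes of 4 pathway lists in the 5 construct groups; each point is 1 gene, filled where the edgeR adjusted p was under 0.05, and the line is the list's median. F3, EDN1, IGFBP3 and BAMBI are the called genes.

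Members also differed by replicate number. In a fit with group and number, 7 of 9 members differed by number (edgeR adjusted p under 0.05), beside 24.6% of all tested genes. Between pairs of numbers, 15.9% of all genes differed for 2 against 1, 9.98% for 2 against 3 and 16.0% for 3 against 1. The exceptions were AMOTL2 (edgeR adjusted p 0.134) and TGFB1 (0.159). The labels do not say what a number marks.

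CCN1 was lower in number 2 than in number 1 in each of the 6 groups, by a log2 difference of -1.39 (edgeR adjusted p 0.00126, SE 0.24), and lower than in number 3 by -0.87 (edgeR adjusted p 0.0317, SE 0.23). Its median was 335 CPM in the 6 libraries with number 2, against 929.9 CPM in number 1 and 647 CPM in number 3. CCN2 was lower in number 2 than in number 1 by -0.88 (edgeR adjusted p 0.0166, SE 0.23), and its difference of -0.25 (SE 0.22) from number 3 did not pass (edgeR adjusted p 0.495). The immediate early genes FOS and EGR1, which serum induces within minutes through SRF and its cofactors, moved the same way: FOS was at 12.1 to 34.4 CPM in number 2 and at 381 CPM or more in the other libraries. Of 11 such immediate early genes, 10 were lower in number 2 than in number 1 (edgeR), and their part in the CCN1 and CCN2 differences was not tested.

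ANKRD1 went the other way. It was higher in number 2 than in number 1 by 2.48 (edgeR adjusted p 0.00104, SE 0.39) and than in number 3 by 1.29 (edgeR adjusted p 0.0480, SE 0.37). Number 2 held the highest ANKRD1 level of the 3 libraries in each group except SRF, where replicate 3 was highest. After group means were removed, ANKRD1 correlated at -0.67 with CCN1 and -0.53 with CCN2 over the 18 libraries. TGFB2 was also higher in number 2, by 0.77 against number 1 (edgeR adjusted p 0.0178, SE 0.20) and by 0.67 against number 3 (edgeR adjusted p 0.0484, SE 0.20). LATS2 was higher in number 2 than in number 3 by 0.42 (edgeR adjusted p 0.0235, SE 0.11). AXL was higher in number 3 than in number 1 by 0.67 (edgeR adjusted p 0.00174, SE 0.12), and SMAD7 was lower there by -0.46 (edgeR adjusted p 0.00573, SE 0.10).

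The ratio of number 1 to number 2 is given here for each group. CCN1 in number 1 was 7.15 times number 2 in SRF, 3.55 times in pMSCV and between 2.31 and 2.53 times in SRF-ICA1L, SRF-PDGFRB and SRF-RELA. In the libraries labelled SRF-FOXO1 it was 1.41 times. For CCN2 the same ratios were 4.70 in SRF, 2.16 in pMSCV and 1.01 in the libraries labelled SRF-FOXO1, so that CCN2 in number 2 was at 780 CPM there and at 119 CPM in SRF. The other CCN2 ratios were 1.49 (SRF-RELA), 1.70 (SRF-PDGFRB) and 2.21 (SRF-ICA1L). For FOS the ratio was 61.1 in pMSCV, 58.5 in the libraries labelled SRF-FOXO1 and 45.2 in SRF. The FOS ratio was lower in the remaining fusions, at 24.7 (SRF-RELA), 24.3 (SRF-ICA1L) and 21.15 (SRF-PDGFRB). Each ratio compares 1 library with 1 other, and whether the ratios differ between constructs was not tested.

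**Figure D5:**
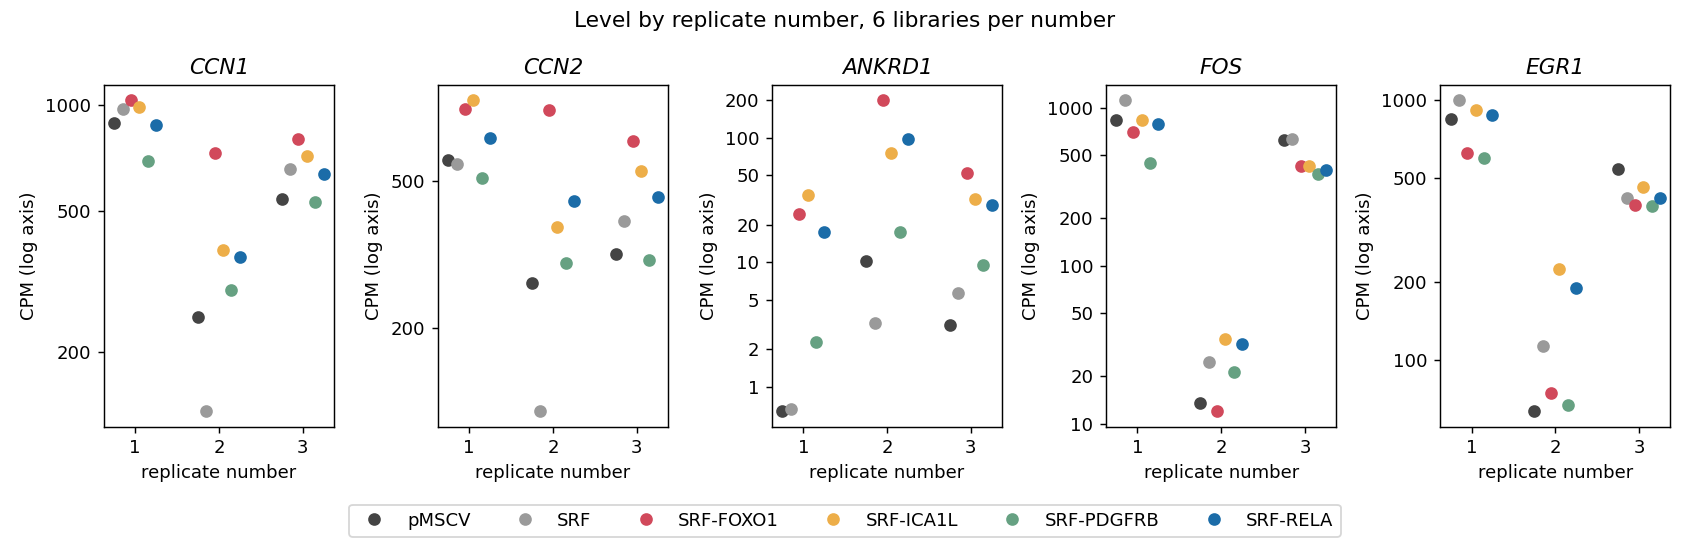
CPM (log y axis) of CCN1, CCN2, ANKRD1, FOS and EGR1 by replicate number (x axis), with 1 point per library coloured by group. CCN1, FOS and EGR1 are lowest in number 2 in each group, ANKRD1 is highest there in 5 of 6 groups, and CCN2 stays at 780 CPM in SRF-FOXO1 replicate 2.

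The genes whose log2 CPM was most like each member over the 18 libraries were taken as a description, since libraries share groups and numbers. ANKRD1 was most like TAGLN, an actin-binding smooth muscle gene, with a Pearson correlation of 0.96, and DDAH1 (0.94). CCN2 was most like DUSP5 (0.88) and KLF2 (0.87), and CCN1 like ZNF486 (0.85) and LINC01929 (0.85). TGFB2 was most like KCTD20 (0.95) and ARHGEF17 (0.92), and SMAD7 like ATXN1 (0.90) and FOXF2 (0.83). ARHGEF17 and FOXF2 are both on the list of other YAP-TEAD targets. LATS2 was most like DIXDC1 (0.92) and KIAA0232 (0.92), AXL like EXD3 (0.92) and GAS6-DT (0.90), the latter a transcript named for its place beside GAS6, the gene of the AXL ligand, and AMOTL2 like SEPTIN11 (0.88) and ADAM19 (0.88). TGFB1 had the weakest such likeness, with SPRY3 (0.75) and AP3B1 (0.72).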

How the data were processed

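RNA from 18 libraries of MSC-hTERT cells was measured. Libraries were stranded mRNA libraries sequenced on a NovaSeq instrument, per the labels' protocols. The authors deposited a table of raw read counts for Ensembl gene identifiers, as its values and the file headers show. The submitters' processing notes name FastQC 0.11.8, Trimmomatic 0.39, HISAT2, featureCounts and Subread 2.0.3 and the build GRCh38. The annotation release and strand setting are not given in the sources used here, so reads of overlapping or antisense genes may be shared.

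Symbols came from a table of gene names (61369 identifiers) and GENCODE release 29 (105 more). CPM was computed from each library's total, and levels between genes were compared per kilobase of GENCODE exons. edgeR 4.0.16 in R 4.3.3 was fitted to all 18 libraries with 1 coefficient per group (12 residual degrees of freedom), after filterByExpr with a minimum count of 10 and TMM scaling. Two-sided quasi-likelihood F tests of the 15 pairs of groups were adjusted by Benjamini-Hochberg over 18544 genes, and calls were made under 0.05. The SE is the absolute log2 fold change divided by the square root of F, and 95% intervals use the residual degrees of freedom. Replicate numbers were tested in a fit with group and number. The code was tested on simulated data.

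Of 45 same-numbered pairs from different groups, 44 deviated together (correlation over 0.1, median 0.38, against -0.18 for 90 pairs with different numbers). The exception, at 0.087, paired SRF-FOXO1 replicate 1 with SRF replicate 1. The rule for using the block asked for over 0.1 in every same-numbered pair of the 2 compared groups. All 18 libraries share 1 blocked fit, so these 2 libraries also enter the other blocked comparisons. The pairing comes from these values, not from the labels. The block is used beside results except for SRF-FOXO1 against SRF, whose blocked calls enter only the counts over members and the last section. Members, pathway lists and the rule for named genes were chosen with earlier results of these data known. The rule takes the 9 members, the 2 genes most like each (mean log2 CPM of at least 1), the listed genes called against pMSCV, up to 4 a list, and FOS and EGR1. Values of some listed genes are not reported here. Alternatives were DESeq2 1.42.0 size factors and tests, total count scaling, other filters, a log2 fold change of at least 1, only the 2 compared groups, the block and leaving out each library.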

Additional observations from a re-analysis of the deposited data

How the results depend on the processing

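None of the 135 member comparisons changed its call under DESeq2 size factors, total count scaling, an omitted count filter, a minimum of 10 counts per library, a log2 fold change of at least 1 or only the 2 compared groups in the fit, and none that was called under any setting changed direction. With the replicate block, 4 comparisons with pMSCV, 4 with SRF and 2 between fusions were called, against 0, 0 and 0 without it. With the DESeq2 Wald test the counts were 2, 3 and 1, with no share of all genes given here. Leaving out 1 library gave 0 to 1 calls against pMSCV, 0 to 2 against SRF and 0 to 0 between fusions, and each of these calls came without SRF-FOXO1 replicate 1. The members that differed by number were 6 to 7 of 9 when a library was left out, and 7 in the full set. For SRF-FOXO1 against SRF, whose number 1 libraries do not pair by the rule used, the block called ANKRD1 (log2 fold change 4.53, edgeR adjusted p 9.07e-04) and CCN2 (1.28, edgeR adjusted p 0.0271). The CCN2 call was lost without SRF replicate 2 (0.83, edgeR adjusted p 0.0565), without SRF-FOXO1 replicate 3 (1.38, edgeR adjusted p 0.0520) and without SRF-FOXO1 replicate 2 (0.92), and the ANKRD1 call held without each of the 6 libraries. Over all genes, those called higher against pMSCV went from 162 to 862, 85 to 604 and 34 to 172 with the block in SRF-FOXO1, in SRF-ICA1L and in SRF-RELA. The causes of these changes were not tested. With 3 libraries a group, the intervals of CCN1 and ANKRD1 against pMSCV spanned more than 2 log2 units, so moderate changes of these genes were not detectable.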
